A study of Mus musculus with 6 samples.

Results

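Chromatin accessibility around the EGR and NR4A immediate early genes was examined in white blood cells of mice. The genes were Egr1, Egr2 and Egr3, the EGR corepressors Nab1 and Nab2, and Nr4a1, Nr4a2 and Nr4a3, which are 8 of the 78252 annotated genes. A peak was given to a gene when its summit lay in the gene body or within 10 kb of an annotated transcription start. Overlapping peaks of all libraries were joined, which gave 28 regions at these genes of 62876 regions in all.

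ATAC-seq, in which the Tn5 transposase cuts open DNA, was performed on leukocytes left after red cell lysis of peripheral blood, with 3 control and 3 HADA libraries. High-altitude de-acclimatization (HADA) is the phase after return from low oxygen. The study's text elsewhere calls the cells peripheral blood mononuclear cells, which would hold few neutrophils, so the sources differ on this. Per the study's methods, the animals were male C57BL/6J mice bought at 8 weeks of age. HADA mice spent 4 weeks in a hypobaric chamber before return to normal oxygen, and control mice stayed in normal oxygen throughout. The day of blood collection for these libraries is not given in the sources used here, nor is it said that each library came from another animal, so the spread between libraries may be technical. The cells were not sorted, and in such a mixture fewer cells of a type and less open chromatin per cell cannot be told apart.

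EGR proteins are zinc finger factors that bind GC-rich DNA, and NR4A proteins are nuclear receptors that need no known ligand and bind the NBRE site as monomers. Both families are switched on within minutes of a stimulus, in lymphocytes chiefly by antigen receptor signals through SRF, MEF2, CREB and NFAT. NAB1 and NAB2 bind EGR proteins and hold back their activity, and Nab2 is itself an EGR target. In T cells Egr2, Egr3 and the NR4A genes are known for restraint of activated cells, and Nr4a1 is needed for patrolling monocytes. The study predicted binding of Egr2 among other factors, so both the genes and their binding sites were compared between groups. In the study the prediction was made for genes with both higher regulatory T cell RNA and higher accessibility. Here motifs were counted over all peaks of the leukocytes, so the prediction itself was not tested.

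Reference sequences of 5 summit windows are shown because the results turn on these regions. They were read from GRCm39, plus strand, as 151 bases centred on the highest summit. In the first pair, which had peaks in 1 group alone, none of the motifs searched was found and the capital marks the summit base. These were EGR, NBRE (AAAGGTCA), CRE (TGACGTCA), AP-1 (TGANTCA), PU.1 (GAGGAAGT), RUNX, CEBP (TTGCNNAA), KLF (CCACACCC) and the CArG box, on both strands. In the next pair the capitals mark the EGR motif GCGNGGGCG on either strand, and in the last they mark the RUNX motif TGTGGTTT.
Nr4a1 at -8.2 kb, chr15:101156362-101156512: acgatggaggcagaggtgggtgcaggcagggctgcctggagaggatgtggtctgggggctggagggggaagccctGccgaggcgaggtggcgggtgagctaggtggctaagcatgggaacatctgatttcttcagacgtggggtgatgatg
Nr4a1 at -4.0 kb, chr15:101160552-101160702: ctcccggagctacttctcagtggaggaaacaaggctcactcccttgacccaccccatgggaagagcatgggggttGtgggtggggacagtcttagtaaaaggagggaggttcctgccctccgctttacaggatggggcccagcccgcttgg
Nr4a1 at -20.3 kb, chr15:101144274-101144424: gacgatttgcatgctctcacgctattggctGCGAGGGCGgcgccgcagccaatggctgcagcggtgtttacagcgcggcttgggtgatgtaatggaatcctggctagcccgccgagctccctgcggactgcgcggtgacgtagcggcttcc
Nr4a3 at -2.0 kb, chr4:48043055-48043205: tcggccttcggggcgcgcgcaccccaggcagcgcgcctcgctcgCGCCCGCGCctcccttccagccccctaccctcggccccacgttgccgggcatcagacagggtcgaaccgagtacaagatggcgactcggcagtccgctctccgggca
Nr4a3 at 29.9 kb, chr4:48074942-48075092: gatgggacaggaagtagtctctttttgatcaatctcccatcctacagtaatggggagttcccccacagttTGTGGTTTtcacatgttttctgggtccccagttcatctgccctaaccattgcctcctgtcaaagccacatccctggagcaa

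Of the 28 regions, 18 had a peak in all 6 libraries (64.3%, against 38.1% of all regions). Their accessibility was measured as the summit pileup, the number of fragments over the summit, divided by the median summit pileup of the library over all regions shared by the 6 libraries. That median ran from 49 to 58 among controls and from 77 to 92 in HADA. The result is called the scaled pileup, and a value of 1 is a region of ordinary height. The member regions were tall, with a median scaled pileup of 2.76, and 15 of 18 lay above the median shared region. They were also broad: 6 of 18 (33.3%) were wider than 2 kb, against 9.07% of all shared regions. The tallest was in an Egr1 exon, in the percentile 99.6 of all shared regions, followed by the Nr4a1 region at −20.3 kb (97.7) and the Nr4a3 region at −2.0 kb (97.3). The lowest were the upstream start of Nr4a2 (24.5), the Nr4a3 intron (30.9) and the main start of Nr4a2 (41.5).

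**Figure D1:**
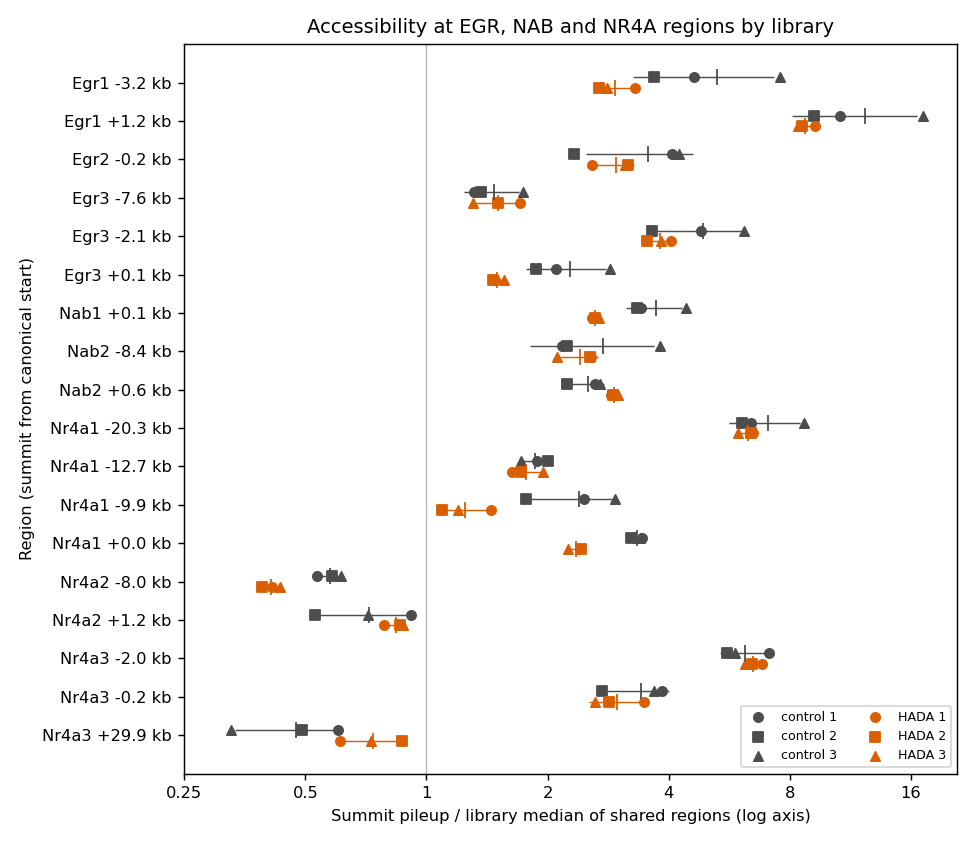
Scaled summit pileup (log axis) of the 18 regions with a peak in all libraries, by distance of the summit from the canonical transcription start. Symbols are libraries, and the tick and line are the mean and SD of 3 libraries per group. The Egr1 exon region is highest in every library, and control 3 is the highest control library at most Egr1, Egr2 and Egr3 regions.

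The groups were compared with limma on log2 scaled pileups over all 23970 shared regions, with Benjamini-Hochberg adjustment. HADA was higher in 4291 (17.9%) and lower in 5769 (24.1%) of all shared regions. Of the 18 member regions, 0 were called higher and 5 lower (27.8%), so the share called lower was near that of all regions. At an unadjusted limma p under 0.05 the counts were 1 higher and 6 lower of the 18, beside 5634 higher and 6961 lower of the 23970 shared regions. The median log2 difference was −0.21 at the members and −0.04 over all shared regions, and 13 members were negative and 5 positive. Member differences ran from −0.92 to 0.67. Without HADA 2 or without HADA 3 the count of members called lower was 0, and without HADA 1 or control 1 it was 1 and 2. Over all shared regions the counts without HADA 2 were 737 higher and 2021 lower. Lower calls over all shared regions numbered 3857 without HADA 3, 3558 without HADA 1 and 5825 without control 1.

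Heights were also compared among tall regions alone, a choice made after values had been seen. Of the tallest 30% of shared regions (7191), 11.3% were lower and 12.1% higher in HADA, with a median of −0.04. Among the 13 members there, 3 were lower. They were the Egr1 upstream region, the Egr3 start and the Nr4a1 start.

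The calls depended on how libraries were scaled. The median shared region stood 0.38 higher on the log2 scale in HADA when pileups were divided by the genome-wide background of the library, and scaled pileups are relative to that shift. Over the background, 31.0% of all shared regions were higher and 18.3% lower, and of the members 1 was higher and 0 were lower. The 5 members called lower had differences of −0.41 (Egr1), −0.20 (Egr3), −0.54 and −0.13 (Nr4a1 at −9.9 kb and at its start) and −0.11 (Nr4a2) on that scale, with limma adjusted p from 0.121 to 0.782. The scaled groups did not overlap in 8 of 18 members, against 60.6% of all shared regions. HADA was below control in 6 of them and above in 2, against 31.2% and 29.3% of all shared regions. Over the background they did not overlap in 3, all with HADA higher, against 42.6% of all shared regions in that direction.

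**Figure D2:**
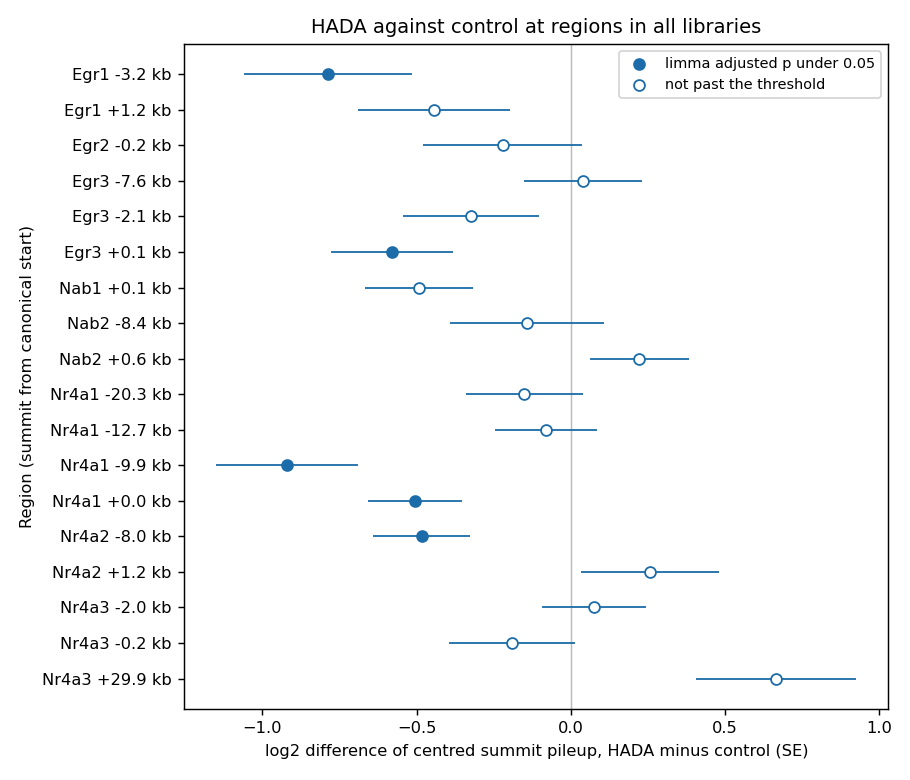
Log2 difference of the scaled summit pileup, HADA minus control, with its limma standard error, for the 18 shared member regions. Filled points passed an adjusted p of 0.05, and all 5 of them lie below 0.

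Egr1, the founding EGR factor and a direct SRF target, had 3 regions (chromosome 18). In its exon at 1.2 kb (34992967–34994999) the region held a CArG box, the SRF site, which 0.924% of all regions hold. Scaled pileups were 10.6, 9.22 and 17.1 in control libraries against 9.27, 8.60 and 8.37 in HADA. Control 3 was far above the rest, and the groups overlapped. The log2 difference was −0.44 (limma adjusted p = 0.173). It was −0.23 without control 3 and −0.62 without control 2 (limma adjusted p = 0.269 and 0.0762). At −3.2 kb (34987455–34989831) the values were 4.64, 3.67 and 7.55 in control libraries against 3.30, 2.69 and 2.81 in HADA. Every HADA library lay below every control library here, and the region was lower in HADA by limma, at −0.79 ± 0.27 (SE, adjusted p = 0.0484). The region at −9.4 kb was low and had a peak in 3 control libraries and in HADA 1, with pileups of 20, 29, 42 and 37. At the background of neighbouring peaks, the calling limit ran from 15 to 113 in HADA 2 and from 16 to 117 in HADA 3, depending on the neighbour.

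Egr2, an EGR factor of T cell restraint and of myeloid cells, had 1 region, which spans its canonical start (chromosome 10, 67371751–67374025). Scaled pileups were 4.07, 2.33 and 4.24 in control libraries against 2.58, 3.17 and 3.11 in HADA. Control 2 was the lowest and the other control libraries the highest, so the groups overlapped. The log2 difference was −0.22 ± 0.26 (SE, limma adjusted p = 0.512), and over the genome-wide background it was 0.16, so not even its sign held. It was −0.0851 without control 1 and −0.50 without control 2 (limma adjusted p = 0.828 and 0.0657). The region was open in all libraries, and no difference between groups was detected. Its summit lies inside the lncRNA Gm66196, 84 bp from a start of that gene and 185 bp from the canonical Egr2 start. The signal therefore cannot be given to 1 of these genes. No EGR motif lay within 100 bp of the summit.

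Egr3, which overlaps Egr2 in T cell restraint, had 3 regions (chromosome 14). At its start (70313991–70314988) scaled pileups were 2.10, 1.87 and 2.86 in control libraries against 1.48, 1.47 and 1.56 in HADA, with no overlap. The region was lower in HADA, with a log2 difference of −0.58 ± 0.20 (SE, limma adjusted p = 0.0474). At −2.1 kb the values were 4.83, 3.64 and 6.14 against 4.07, 3.53 and 3.83, which overlapped, with a difference of −0.32 (limma adjusted p = 0.259). At −7.6 kb, a smaller upstream region with a CEBP motif (in 8.69% of all regions), the values were 1.31, 1.36 and 1.73 against 1.71, 1.51 and 1.31. These overlapped, with a difference of 0.04 ± 0.19 (SE, limma adjusted p = 0.881). Only the start was called.

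Nab1 encodes an EGR corepressor. Its start region (chromosome 1, 52538993–52540239) was 80.1% GC around the summit and held 2 EGR motifs. The summit lies 63 bp from a start of the lncRNA Gm70215. Scaled pileups were 3.41, 3.35 and 4.41 in control libraries against 2.58, 2.62 and 2.68 in HADA, with no overlap. The difference of −0.49 ± 0.17 (SE) did not pass the threshold (limma adjusted p = 0.0537). It passed under 4 alternatives, with limma adjusted p of 0.0358 with summits chained into regions, 0.0377 at a −log10 q of at least 5, 0.0344 with equal peak numbers and 0.0282 with an intensity trend. Over the genome-wide background the difference was −0.11 (limma adjusted p = 0.767), and limma adjusted p was 0.122 with a replicate block and 0.149 to 0.158 with 1 HADA library left out. An intron region at 10.8 kb had peaks in HADA 1 and HADA 2 alone, with pileups of 10 and 17, beside a calling limit of 7 to 8 in the other libraries. It held a KLF motif, as 2.32% of all regions do.

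Nab2, the corepressor that EGR factors induce, lies beside Nemp1, a nuclear envelope gene that overlaps its start region. The start region (chromosome 10, 127502258–127504727) lies 845 bp from a start of Nemp1, so its signal cannot be given to 1 of these genes. Scaled pileups were 2.62, 2.24 and 2.69 in control libraries against 2.87, 2.91 and 3.00 in HADA, with HADA above control in every library. The difference was 0.22 (limma adjusted p = 0.291). The region at −8.4 kb lies 110 bp from another Nemp1 start and showed 2.17, 2.24 and 3.82 against 2.57, 2.55 and 2.11, which overlapped, with a difference of −0.14 (limma adjusted p = 0.665). The remaining region at 6.2 kb, in an intron, had a peak in control 1 and in all HADA libraries, with pileups of 32, 71, 71 and 59. Scaled pileups were 0.55 in control 1 against 0.77, 0.92 and 0.73 in HADA. At the background of neighbouring peaks, the calling limit was a pileup of 9 to 35 in control 2 and 35 in control 3. The summit lies 1405 bp from a start of the lncRNA Gm16229 and 3034 bp from a Stat6 start.

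Nr4a1, also known as Nur77, had most regions of the members, 8 on chromosome 15 from −22.5 to 9.3 kb of its canonical start. Of these 4 were shared by all libraries. At the canonical start (101163949–101166303), which holds an EGR motif, scaled pileups were 3.43, 3.22 and 3.39 in control libraries against 2.40, 2.43 and 2.25 in HADA. The groups were well apart and the spread within each was small, and limma called the start lower in HADA, with a difference of −0.50 ± 0.15 (SE, adjusted p = 0.0323). At −9.9 kb (101153852–101155225), in an exon of a longer Nr4a1 transcript, the values were 2.47, 1.76 and 2.94 against 1.45, 1.09 and 1.20. This was the lowest difference of any member, −0.92 ± 0.23 (SE, limma adjusted p = 0.0185), and the groups did not overlap. The summit of HADA 3 lay apart from the rest, with summits spread over 657 bp, and when summits within 250 bp were chained this region was no longer shared by all libraries and gave no value. This region also lies 158 bp from a start of the lncRNA Gm63180, and the summit at the canonical start lies 97 bp from a start of the lncRNA Gm63176.

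Other Nr4a1 regions did not pass the test. The tall region at −20.3 kb (101143902–101145128) lies 107 bp from a start of the lncRNA Gm63023, and its EGR motif is among the sequences shown. Scaled pileups were 6.41, 6.09 and 8.69 in control libraries against 6.49, 6.42 and 5.95 in HADA, a difference of −0.15 (limma adjusted p = 0.542). The most upstream Nr4a1 start at −12.7 kb showed 1.88, 2.00 and 1.71 against 1.63, 1.71 and 1.95, a difference of −0.08 (limma adjusted p = 0.715). Both overlapped between groups. Regions at −22.5 and 9.3 kb were called in 1 library each, control 3 with a pileup of 82 and control 1 with 41. At −22.5 kb pileups of up to 51 to 67 could have gone uncalled elsewhere, and at 9.3 kb the upper limits lay above 41 in the libraries without a peak.

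Between these, 2 intron regions of longer Nr4a1 transcripts had peaks in 1 group alone. The region at −8.2 kb (101156104–101156767) had a peak in 3 of 3 HADA and 0 of 3 control libraries, a pattern of 7.01% of all regions. Its pileups were 144, 155 and 158, which are scaled pileups of 1.57, 2.01 and 1.95. The region at −4.0 kb (101160237–101160837), under the lncRNA Gm56721, had a peak in 3 of 3 control and 0 of 3 HADA libraries, a pattern of 1.88% of all regions. Its pileups were 92, 84 and 112, scaled 1.59, 1.53 and 2.29. Opposite presence was therefore seen within one gene, a few kb apart.

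Absence from a list is not absence of signal, so the highest summit that could have gone uncalled was computed from the local background of the nearest peaks of the same library, 1686 to 4190 bp away. At −8.2 kb a summit had to reach a pileup of at most 61, 56 and 56 in the control libraries to be called, scaled 1.05, 1.02 and 1.14. Each HADA value lay above those limits. At −4.0 kb the limits in the HADA libraries were 65, 59 and 60, scaled 0.71, 0.77 and 0.74, and each control value lay above them. These limits assume that the background at the region was like that of its neighbours. No test was made. Whether either is the upstream Nr4a1 enhancer known from patrolling monocytes was not examined.

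**Figure D3:**
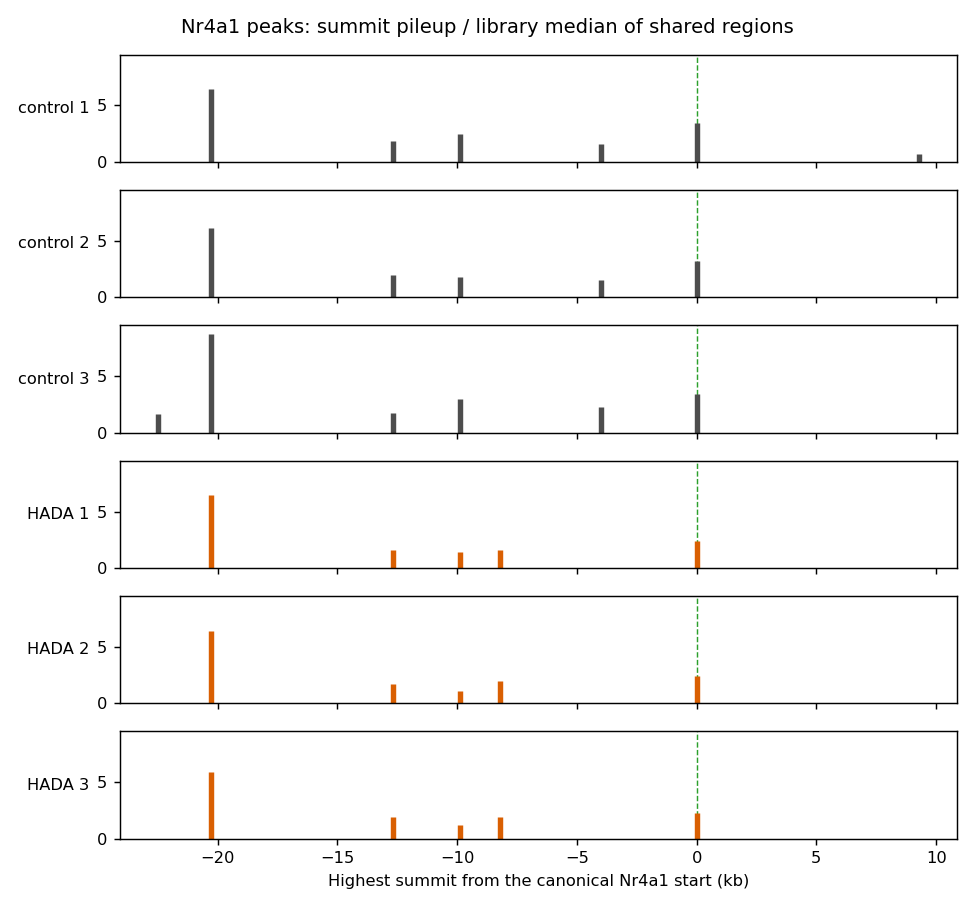
Scaled summit pileup of each peak at Nr4a1 by distance of the region's highest summit from the canonical start (dashed line), 1 panel per library. The bar at −4.0 kb appears in the control panels alone and the bar at −8.2 kb in the HADA panels alone, while the bar at −20.3 kb is the tallest in every panel.

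Nr4a2, or Nurr1, was the least open member. At its upstream start (chromosome 2, 57013294–57014585, −8.0 kb) scaled pileups were 0.53, 0.58 and 0.61 in control libraries against 0.41, 0.39 and 0.43 in HADA. The groups did not overlap, and limma called the region lower in HADA, with a difference of −0.48 ± 0.16 (SE, adjusted p = 0.0405). The pileups behind these values were only 30 to 38, and with an intensity trend in limma the call was lost (adjusted p = 0.0864). With summits chained this region was not shared by all libraries. The main start (57004343–57007663), a broad region with a CRE, the CREB site (in 0.571% of all regions), showed 0.91, 0.53 and 0.71 against 0.78, 0.86 and 0.88. It overlapped between groups, with a difference of 0.26 (limma adjusted p = 0.376), which was 0.0556 without control 2 and 0.46 without control 1. Summits there were spread over 1908 bp. A downstream region at 13.2 kb was called in control 2 alone, with a pileup of 11.

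Nr4a3, or Nor1, had 5 regions on chromosome 4. The tall region at −2.0 kb (48042701–48043793), 50 bp from a start of the lncRNA Gm57084, held an EGR motif and showed scaled pileups of 7.12, 5.60 and 5.84 in control libraries against 6.82, 6.43 and 6.21 in HADA. At −0.2 kb, beside the start, the values were 3.84, 2.73 and 3.67 against 3.47, 2.84 and 2.62. Both overlapped between groups, with log2 differences of 0.08 and −0.19 (limma adjusted p = 0.740 and 0.469). With 1 library left out, the difference at −0.2 kb ran from −0.34 to −0.0792. An intron region at 29.9 kb (48074529–48075595), with a RUNX motif at its summit (in 2.73% of all regions), was small in all libraries, at 0.60, 0.49 and 0.33 in control libraries against 0.61, 0.87 and 0.73 in HADA. HADA 1 lay just above control 1, and the difference of 0.67 ± 0.26 (SE) did not pass the threshold (limma adjusted p = 0.0709). It was 0.87 without control 1, where it passed (limma adjusted p = 0.0342), and 0.37 without control 3 (limma adjusted p = 0.185). Over the genome-wide background the same region was higher in HADA by 1.04 (limma adjusted p = 0.00228), the only member called in that direction. The other 2 Nr4a3 regions were called in 1 HADA library and in 2 control libraries, with pileups of 12 to 20, and the first of these held an AP-1 motif (in 5.52% of all regions).

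The authors' own fold enrichment, which is relative to the local background, gave another order. Ranked by that fold within each library, 2 member regions were higher and 0 lower in HADA by limma, against 6.57% and 4.79% of all shared regions. They were the Egr3 region at −7.6 kb (deposited fold 2.08, 2.34 and 1.85 in control libraries against 3.52, 3.49 and 3.09 in HADA) and the Nemp1 start near Nab2 (3.57, 3.78 and 4.50 against 6.31, 6.47 and 5.70). At the Nr4a1 start the fold was 4.69, 4.62 and 4.11 in control libraries against 6.09, 5.82 and 5.48 in HADA, the opposite of its scaled pileup. The local background there, over that of the genome, was 24.7, 18.3 and 21.7 in control libraries against 15.2, 15.7 and 14.3 in HADA. This local background did not overlap between groups at 2 members. It was below control in HADA at the Nr4a1 start, as in 12.7% of all shared regions, and above control at the Nab2 start, as in 45.8%. In the Egr1 exon the fold was likewise higher in every HADA library, at 7.06, 7.40 and 7.62 against 5.75, 5.71 and 6.25. In all, 9 of 18 members changed sign between scaled pileup and fold rank. The number of peaks at the members was 23, 24 and 23 in control libraries against 22, 22 and 21 in HADA, with means of 23.3 ± 0.577 and 21.7 ± 0.577 (SD, n = 3 each, exact two-sided permutation p = 0.1, the smallest possible). The difference of −1.67 was −0.667 at a −log10 q of at least 5 and −1 with equal peak numbers (exact two-sided permutation p = 0.7 and 0.5). All peaks numbered 41475, 41214 and 34045 in control libraries against 44401, 44044 and 45799 in HADA, the other way.

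The binding sites of the encoded factors were compared over all peaks. The EGR motif GCGNGGGCG lay within 100 bp of the summit in 2.19%, 2.06% and 2.31% of control and 2.16%, 2.29% and 2.22% of HADA peaks. The means of 2.19 ± 0.126% and 2.22 ± 0.0655% differed by less than the spread (SD, n = 3 each, exact two-sided permutation p = 0.7). With each list cut to its strongest peaks in equal number, however, HADA was higher by 0.336 percentage points with no overlap (exact two-sided permutation p = 0.1, the smallest possible). Windows 1 kb away held it in 0.240% to 0.284%. The NBRE motif AAAGGTCA lay in 0.845 ± 0.0419% of control and 0.891 ± 0.0294% of HADA peaks (SD, n = 3 each, exact two-sided permutation p = 0.2), and in 0.917% to 0.996% of windows 1 kb away, against 0.801% to 0.919% at summits. Of the member regions 4 of 28 held the EGR motif and 0 the NBRE motif, against 1.60% and 0.934% of all regions. A match of letters is a description, not evidence of binding.

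Heights at sites with these motifs were read from the same fit. Of 784 shared regions with the EGR motif, 159 were higher (20.3%) and 32 lower (4.08%) in HADA by limma, with a median log2 difference of 0.16, beside 17.9%, 24.1% and −0.04 for all shared regions. Of 175 shared regions with the NBRE motif, 24 were higher (13.7%) and 61 lower (34.9%), with a median of −0.31. The EGR-site regions are tall: 444 were among the tallest 30%, of which 40 were higher (9.01%) and 18 lower (4.05%), beside 12.1% and 11.3% of all tall regions. Among tall regions the shares of higher and of lower calls at EGR sites were thus both below those of all tall regions, the lower share by more. Higher calls outnumbered lower calls there by 40 to 18, against 871 to 812 over all tall regions. Of 40 tall regions with the NBRE motif 4 were higher and 8 lower. Without HADA 2 the EGR counts fell to 32 higher and 5 lower, and the NBRE counts to 5 and 30. Over the genome-wide background they were 292 (37.2%) and 10 (1.28%) at EGR sites and 46 (26.3%) and 42 (24%) at NBRE sites, beside 31.0% higher and 18.3% lower of all shared regions. Of the member regions with an EGR motif the Nr4a1 start was called lower, and the Nab1 start, the Nr4a1 region at −20.3 kb and the Nr4a3 region at −2.0 kb did not pass the test.

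Genes that work with the members were described by the same counts. Of 88 shared regions at 38 other immediate early genes, 5 were higher (5.68%) and 27 lower (30.7%), with a median log2 difference of −0.35. Egr4 had no peak. Called regions included Dusp1, a MAP kinase phosphatase, at 3.28, 3.11 and 6.41 in control libraries against 1.32, 0.86 and 0.74 in HADA (scaled pileup, log2 difference −2.10, limma adjusted p = 0.00903), and Fosl2, an AP-1 subunit (−1.40, adjusted p = 0.0114). The Dusp1 region lay 10085 bp and the Fosl2 region 1850 bp from the nearest start of the gene. The starts of Cd69, an early activation marker of lymphocytes (0.85, adjusted p = 0.0130), and of Arc, an activity-regulated gene best known in neurons (0.90, adjusted p = 0.0225), were higher. Among the 62 tall regions of this list, 19 were lower (30.6%) and 1 higher (1.61%), beside 11.3% and 12.1% of all tall regions.

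At the upstream regulators, 13 of 54 shared regions were higher (24.1%) and 5 lower (9.26%). Called by limma were regions of Mef2d, a MEF2 factor (1.47, adjusted p = 0.0100), and of the ternary complex factors that act with SRF, with an Elk1 region lower (−1.83, adjusted p = 0.0118) and 2 Elk3 regions in opposite directions (1.18 and −0.92). The Elk1 region lay 18638 bp from the nearest Elk1 start, and the Elk3 regions lay 10829 and 24002 bp from an Elk3 start. Other genes near these regions were not examined. At the EGR partners and targets, 4 of 34 were higher (11.8%) and 5 lower (14.7%), both below the shares of all shared regions (17.9% and 24.1%). Id3, an EGR-induced inhibitor of E proteins, was higher at its start (1.05, limma adjusted p = 0.0124) and at a neighbouring region (1.31), while regions of Cdkn1a (−1.72) and Socs3 (−0.92) were lower. At the NR4A partners and targets, 2 of 13 were higher and 2 lower (15.4% each), likewise below. The Tox start (0.77, limma adjusted p = 0.0129) and an Ikzf4 region (0.70) were higher, and 2 regions of Rxra, the retinoid X receptor that pairs with NR4A1 and NR4A2, were lower (−1.48 and −1.82). Without HADA 2 the calls over these 4 lists fell from 24 higher and 39 lower to 4 and 8. Over the genome-wide background they were 42 higher and 27 lower, and at the other immediate early genes 12.5% were higher and 22.7% lower, beside 31.0% and 18.3% of all shared regions.

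Markers of some blood cell types differed between the groups. At B cell markers 10 of 11 shared regions were higher and 0 lower in HADA, and the scaled pileups summed to 6.02 to 12.8 in control libraries against 23.4 to 23.8 in HADA. At neutrophil markers 0 of 11 were higher and 8 lower, with sums of 12.9 to 28.4 against 6.57 to 9.20, and at classical monocyte markers 5 of 5 were lower, with sums of 3.38 to 4.53 against 1.90 to 2.08. Patrolling monocyte markers had 3 of 14 higher and 3 lower, with sums of 10.5 to 13.1 against 9.86 to 10.3, and the starts of Cx3cr1 (−1.11) and Treml4 (−1.72) were lower. T cell markers had 4 of 15 higher and 1 lower, with sums of 16.8 to 19.2 against 18.9 to 19.2, and regulatory T cell markers 4 of 6 higher and 0 lower, with sums of 4.41 to 5.76 against 7.65 to 7.78. NK cell markers had 0 of 2 called, with sums of 0.796 to 1.19 against 0.924 to 1.43. Eosinophil and basophil markers had 1 of 3 higher and 2 lower (1.59 to 1.90 against 1.21 to 1.57), with no peak at Epx or Mcpt8, and erythroid and platelet markers 1 of 2 higher and 0 lower (0.612 to 0.745 against 0.938 to 1.07), with no peak at Gp9. Control 3 had the highest sum of the neutrophil list and of the other immediate early genes (538, against 343 and 321 in control 1 and control 2), and it was also the highest library at the Egr1 exon and the Egr3 start. Its sum was also the highest for the upstream regulators (150), EGR partners and targets (84.5), NR4A partners and targets (22.9), both monocyte lists (4.53 and 13.1) and eosinophils and basophils (1.90). For B cells (6.02), regulatory T cells (4.41), NK cells (0.796) and erythroid and platelet markers (0.612) its sum was the lowest. Regions of single markers with the smallest p were, with log2 differences except for the first, among those higher in HADA Cd79b (scaled pileup 0.204 to 0.397 in control libraries against 0.783 to 0.963 in HADA) for B cells, Lck (0.90) and Cd5 (0.63) for T cells, Ctla4 (1.49) and Il2ra (1.18) for regulatory T cells, 2 regions of Pou2f2 (1.11 and 0.71), Prg2 (0.69) and Itga2b (0.91). Among those lower were S100a9 (−2.08, but higher by fold rank, with limma adjusted p = 0.0450) and Mmp8 (−1.40) of neutrophils, Fcgr1 (−1.13) of classical monocytes, Cd6 (−1.43) and 2 regions of Siglecf (−0.87 and −0.59). The part of cell mixture in the differences at the EGR, NAB and NR4A genes was not tested.

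**Figure D4:**
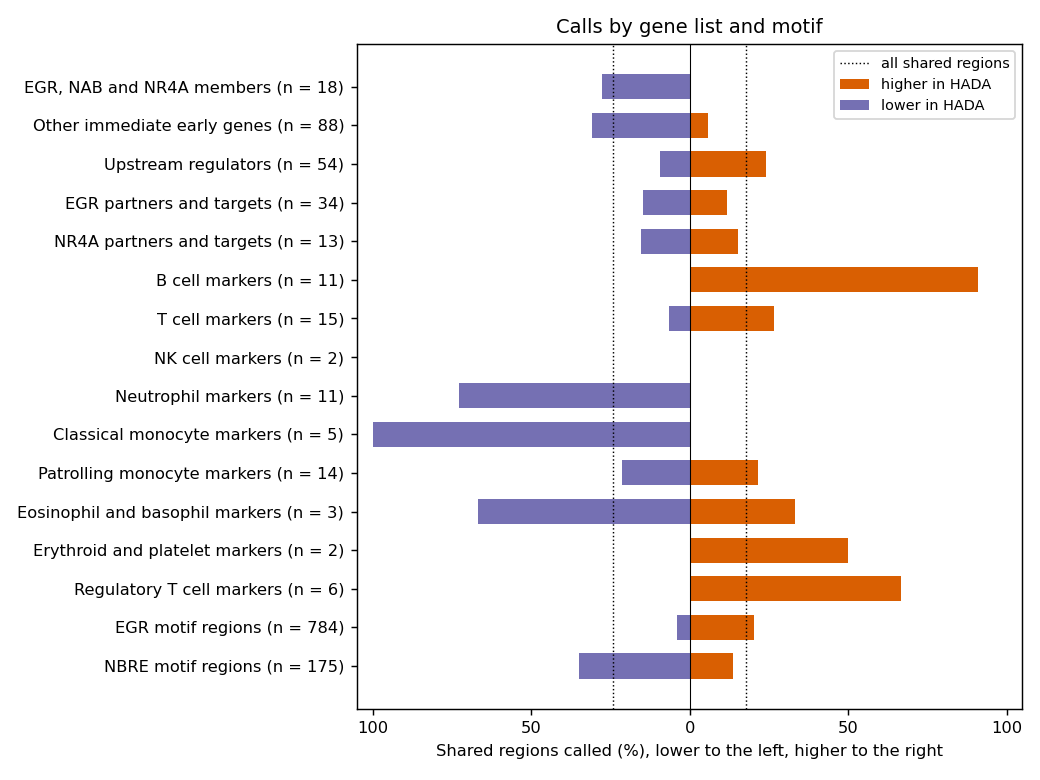
Percent of shared regions called higher (right) or lower (left) in HADA by limma for the member regions, each gene list and the regions with an EGR or NBRE motif, with the number of shared regions in brackets. Dotted lines are the shares over all shared regions, 17.9% higher and 24.1% lower. On the left the member bar ends near the dotted line, and the neutrophil and classical monocyte bars run far past it. On the right the B cell bar runs far past the other line.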

How the data were processed

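ATAC-seq peak lists of 6 libraries, 3 per group by the labels, were analysed. The authors named FastQC, Trimmomatic, Bowtie2, Picard, MACS2, featureCounts and bedtools with GRCm39. Versions, MACS2 options and any shift of reads for Tn5 are not given in the sources used here. Each library was called by itself, per the file headers of the peak names. Each deposited peak has a fold enrichment ratio of its summit over local background, a −log10 p and −log10 q, a score of 10 times the −log10 q, and a summit offset, all made by the authors' peak caller. Peaks numbered 34045 to 45799 on the main chromosomes, and 100% of deposited pairs of fold and −log10 p gave a whole summit pileup and a background, with the recomputed −log10 p within 0.01% of the deposited one. The genome-wide background, a measure of depth, ran from 1.69 to 2.05 in controls and from 1.99 to 2.34 in HADA. Total reads were not analysed here, and precision is limited by 3 libraries per group. The build was checked: 14.5% of summits lay within 100 bp of a start, against 1.18% after a shift of 100 kb.

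Peaks sharing 1 bp were joined, and a region's highest summit per library was used. Genes came from GENCODE M39. Log2 pileups of shared regions, centred on each library's median, were compared with limma 3.58.1 (R 4.3.3) with Benjamini-Hochberg adjustment at 0.05, which was tested on simulated data. Single values were compared by exact permutation (Python 3.11.15), where 3 against 3 cannot go below p = 0.1. Pileups were solved and folds ranked with scipy 1.17.1. Motifs were searched within 100 bp of summits on both strands. The 50 bases at every member summit had 1 copy in the genome. Replicate numbers were shared between groups, but deviations of same-numbered libraries correlated at −0.08, 0.08 and −0.38, so they do not pair the libraries. By rule, all members were named, and in each list the 2 regions called with the lowest p on either side. The members and lists were chosen with earlier results of these data known. Alternatives were pileup over background, fold rank, an intensity trend, a replicate block, other joining, thresholds, reach and motif windows, and each library left out. Some marker genes that the rule would name are not reported here.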

Additional observations from a re-analysis of the deposited data

How the results depend on the processing

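Counts of calls, in the order all regions higher and lower, members higher and lower, EGR-site regions higher and lower, NBRE-site regions higher and lower, related lists higher and lower, were 4291, 5769, 0, 5, 159, 32, 24, 61, 24 and 39. With pileups divided by the background, they were 7437 and 4396 over all regions, 1 and 0 at members, 292 and 10 at EGR sites, 46 and 42 at NBRE sites and 42 and 27 at related lists. By fold rank they were 1574, 1147, 2, 0, 48, 5, 4, 13, 14 and 8. With each list cut to its strongest peaks in equal number, 40 NBRE-site regions were lower. With 1 library left out they ran from 737 to 4813, 2021 to 5917, 0 to 1, 0 to 4, 32 to 180, 5 to 41, 5 to 31, 30 to 60, 4 to 28 and 8 to 42. The lowest counts over all regions were without HADA 2. The members called lower numbered 0 without HADA 2 or HADA 3, 1 without HADA 1 and 2 without control 1. Over all shared regions the lower calls in these 4 settings were 2021, 3857, 3558 and 5825. A replicate block gave 2991 higher and 5660 lower over all regions and 1 lower member, the Nr4a1 region at −9.9 kb (limma adjusted p = 0.0196).

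Differences at 6 members changed sign over the background: Egr2 (0.16), Egr3 at −2.1 kb (0.0547), Nab2 at −8.4 kb (0.24), Nr4a1 at −20.3 and −12.7 kb (0.23 and 0.30) and Nr4a3 at −0.2 kb (0.19). By fold rank 9 did: Egr1 exon (0.36), Egr2 (0.0610), Egr3 at −2.1 kb (0.15), Nab2 at −8.4 and 0.6 kb (0.91 and −0.24), Nr4a1 at −20.3, −12.7 and 0.0 kb (0.47, 0.44 and 0.52) and Nr4a3 at −2.0 kb (−0.0647). With 1 library left out, Egr3 at −7.6 kb ran from −0.0532 to 0.163, Nab2 at −8.4 kb from −0.27 to 0.0701 and Nr4a3 at −2.0 kb from −0.0142 to 0.192. The lower members numbered 6 at a −log10 q of at least 5 and with equal peak numbers, where the Nab1 start was added. Over all shared regions 4580 and 4093 were lower in these settings, against 5769 in the main one. The lower members numbered 5 with an intensity trend, where Nab1 was added and the upstream Nr4a2 start lost, beside 5862 lower over all shared regions. The 5 members called lower stayed negative over the background, and none passed the threshold there. HADA-only and control-only member regions numbered 1 to 2 each with 1 library left out, and HADA-only regions numbered 2 at a −log10 q of at least 5 and with equal peak numbers. With summits chained, 4 members were lower, beside 4656 over all shared regions. The Egr1 exon, Egr2, Nr4a1 at −9.9 kb and Nr4a2 at −8.0 kb were then not shared by all libraries. The difference in peaks at members was 0 within 3 kb, −0.667 at a −log10 q of at least 5, −1 with equal peak numbers, and −1.83 to −1.33 with 1 library left out. In motif share, the difference in percentage points was −0.127 for EGR and −0.0261 for NBRE within 250 bp, 0.336 for EGR and −0.00783 for NBRE with equal peak numbers, and −0.0306 to 0.0955 (EGR) and 0.0248 to 0.0665 (NBRE) with 1 library left out. The cause of these changes was not tested.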
